A study of Homo sapiens with 4 samples.

Results

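The genes described here are the 3 paralogs of the insulin-like growth factor 2 mRNA-binding protein family, IGF2BP1 (also called IMP1), IGF2BP2 and IGF2BP3, together with LIN28B and HMGA2. They were selected by gene symbol, and all 5 were present among the 19192 genes counted. The cells were SW480, an established human colorectal adenocarcinoma line, either wild type or labelled IMP1-/-. From each genotype 1 library of ribosome-protected fragments (RPF, or footprints, the stretches of mRNA covered by ribosomes) and 1 of total RNA were sequenced, 4 libraries in all, each from 3 pooled culture plates. In the library of wild-type RNA, 1 label gives the line as SW840 in place of SW480, a conflict that was not resolved. With 1 library per group no difference below has a replicate check, no p-value is given, and genotype, clone and culture cannot be told apart.

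IGF2BP proteins bind mRNA through RRM and KH domains and are known to stabilise, localise or hold back the translation of their targets. They are abundant in the embryo, largely silent in most adult tissues, although IGF2BP2 stays widely expressed, and they return in many carcinomas, hence the word oncofetal. The let-7 microRNAs pair through their seed with 3′ UTRs of oncofetal mRNAs and repress them, and LIN28B, an RNA-binding protein, blocks the maturation of let-7 precursors. HMGA2, an architectural chromatin protein of the embryo, is among the best known let-7 targets. In this way the 5 genes form a circuit in which LIN28B restrains let-7 and let-7 restrains LIN28B, HMGA2 and the IGF2BP mRNAs. The deposited values are counts per gene symbol, each tied to a single transcript, and mature let-7 was not analysed here.

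The let-7 family is shown first because its seed defines the matches counted below. The 9 mature names of the family in RefSeq (GRCh38.p14), from 12 genes and including hsa-miR-98-5p, share 1 seed. Bases 2 to 8, the seed, are in capitals in 3 of them.
hsa-let-7a-5p: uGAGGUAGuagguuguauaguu
hsa-let-7g-5p: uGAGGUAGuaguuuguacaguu
hsa-miR-98-5p: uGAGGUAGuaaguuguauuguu

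Exact matches to the complement of this seed, CTACCTC on the mRNA strand, were searched in the 3′ UTR of the transcript that the count files assign to each gene (GENCODE release 29, GRCh38). IGF2BP1, LIN28B and HMGA2 each held 4 matches, and IGF2BP2 and IGF2BP3 each held 1. Over all 18136 transcripts with a 3′ UTR, 7.94% held at least 1 match and 0.788% at least 2. Only 8 genes held 4 or more. Longer 3′ UTRs hold more matches, and of the 4174 with at least 2000 bases, 20.1% held at least 1 and 2.71% at least 2. The members were chosen as genes of the let-7 circuit, so these counts describe them and are no independent evidence. A match is a run of letters, not proof of a site in use. The matches below, 1 or more per member, are the stretches a let-7 seed could pair with. Each is shown on the mRNA strand in GRCh38 with the seed match in capitals, 14 bases before it and 1 after.
IGF2BP1 match 1, chr17:49051062-49051083, plus strand: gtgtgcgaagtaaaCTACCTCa
IGF2BP1 match 2, chr17:49053699-49053720, plus strand: agcagtgctagtaaCTACCTCa
IGF2BP1 match 3, chr17:49054353-49054374, plus strand: tataaatggattaaCTACCTCa
IGF2BP2 match 1, chr3:185644220-185644241, minus strand: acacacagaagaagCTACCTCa
IGF2BP3 match 1, chr7:23311795-23311816, minus strand: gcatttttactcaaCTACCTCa
LIN28B match 1, chr6:105078813-105078834, plus strand: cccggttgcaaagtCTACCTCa
LIN28B match 3, chr6:105081422-105081443, plus strand: tttacagcaaaaggCTACCTCa
HMGA2 match 1, chr12:65963299-65963320, plus strand: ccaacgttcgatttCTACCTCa
HMGA2 match 2, chr12:65964534-65964555, plus strand: cccactactcaataCTACCTCt

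All matches shown but the last are followed by an A, the form that also faces the first position of the microRNA. Of the 4 matches in IGF2BP1, 3 have this A, as do 2 of 4 in LIN28B, 1 of 4 in HMGA2 and the single matches of IGF2BP2 and IGF2BP3. In LIN28B and HMGA2 the first match starts at base 44 and base 21 of the 3′ UTR, close to the stop codon. The transcripts lie on separate chromosomes (GRCh38), IGF2BP1 at chr17:48997412-49055650 with 15 exons, IGF2BP2 at chr3:185643739-185825056 with 16, IGF2BP3 at chr7:23310209-23470467 with 15, LIN28B at chr6:104957048-105083332 with 4 and HMGA2 at chr12:65824131-65966295 with 5. IGF2BP2 and IGF2BP3 are on the minus strand and the others on the plus strand. The 3′ UTRs differ in length, with 6206 bases in IGF2BP1, 4549 in LIN28B, 3003 in HMGA2, 2153 in IGF2BP3 and 1792 in IGF2BP2.

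**Figure D1:**
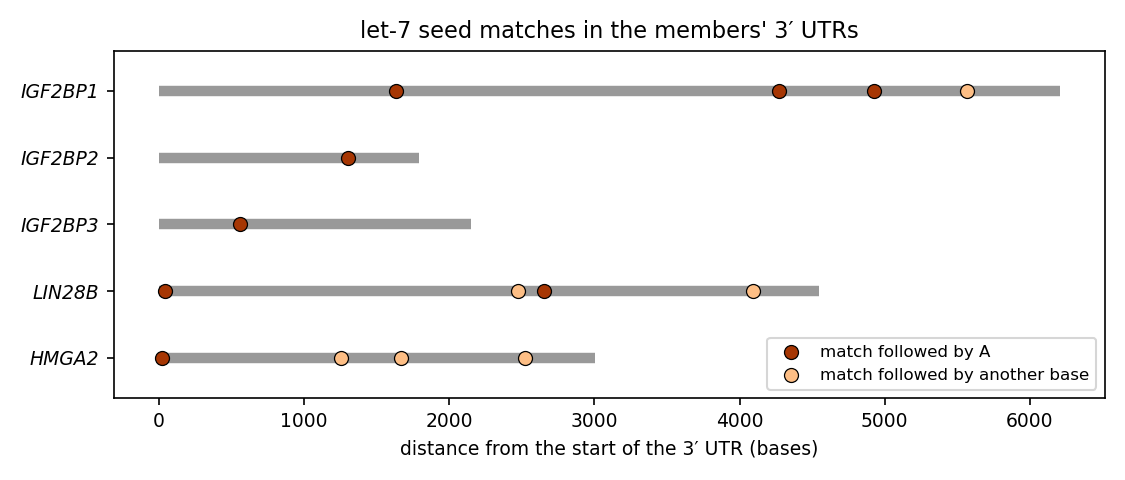
Positions of let-7 seed matches (points) along the 3′ UTR of each member (grey bars), as the distance in bases from the start of the 3′ UTR. Dark points are followed by an A and light points by another base. IGF2BP1, LIN28B and HMGA2 have 4 matches each, and IGF2BP2 and IGF2BP3 have 1 each.

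Library totals ranged from 3778316 to 5551479 counts, so a count of 0 allowed up to 3 counts, or between 0.540 and 0.794 CPM (reads scaled to the library total). The epithelial markers EPCAM, KRT8, KRT18 and KRT19 had between 1081 and 52179 reads in every library, while KRT20 and LGALS4, markers of differentiated colon epithelium, had 0 reads in all 4. The microvillus gene VIL1 went from 160 to 2 RNA reads and from 335 to 0 footprint reads, wild type first. Of 7 mesenchymal markers, summed levels were between 0.529 and 5.68 CPM in the 4 libraries. Summed CPM of 11 intestinal epithelial markers was 8326 and 5675 in RNA and 25382 and 20319 in RPF, wild type first. KRT8 and KRT18 carried most of this sum, whereas the E-cadherin gene CDH1 had 83 and 286 RNA reads and 88 and 275 footprint reads. Footprints of EPCAM (1348 and 1542) and KRT19 (5230 and 6166) were also more numerous in the knockout-labelled library. The 9 leukocyte and endothelial markers summed to between 3.17 and 372 CPM, with PTPRC and CD3E among those at 0 in all 4 libraries. Of these, the receptor gene KDR had 1969 and 843 RNA reads and 6 and 4 footprint reads, and the macrophage gene CD68 had 26 and 221 RNA reads and 4 and 198 footprint reads, so the sum holds changes in opposite directions. The part of these marker differences in the results below was not tested. In bulk libraries, fewer cells that express a gene and less RNA per cell cannot be told apart.

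IGF2BP1 is the gene named as deleted. Its RNA reads numbered 598 (wild type) and 571 (knockout-labelled), and its footprint reads 285 and 149 in the same order. Its RNA was thus nearly level between the genotypes, while its footprints were about halved and still far above the 3 reads that a count of 0 allows. After scaling by the trimmed mean of M values, the knockout-labelled level was 106% of wild type in RNA (95% counting interval 94.4 to 119) and 52.3% in RPF (42.6 to 63.9). The exons behind these reads cannot be told from 1 count per gene, nor can the loss of a protein product, and the second genotype is called knockout-labelled throughout.

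A difference is given as the log2 ratio of knockout-labelled over wild type with a 95% interval that covers counting error only. It was called where it reached 1.5-fold and its interval excluded no change, where the RNA pair or the RPF pair of libraries held 50 or more reads of the gene (both pairs for TE). The change in translational efficiency (TE, footprints per RNA) is the RPF change minus the RNA change. Of the 10875 genes measured in RNA 34.0% were called by this rule, 1759 higher and 17.8% of all lower. In RPF 39.1% of 9794 were called, 1861 higher and 20.1% of all lower, and in TE 29.6% of 9598, with 15.7% higher and 13.9% lower. Median changes over all these genes were −0.01 in RNA, −0.0007 in RPF and 0.03 in TE. Of the 4 members that reached the minimum, HMGA2 was called lower in RNA, IGF2BP1 and HMGA2 lower in RPF, IGF2BP1 lower in TE and HMGA2 higher in TE, so 1 or 2 of the 4 were called in each quantity, a count too small to set apart from these shares. At 2-fold in place of 1.5-fold, HMGA2 was still lower in RNA (background 14.7% called, 8.35% lower) and in RPF (18.9% and 9.87%), and IGF2BP1 was still lower in TE (12.7% and 6.28%).

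For IGF2BP1 the RNA change of 0.08 (−0.08 to 0.25) was not called, the RPF change of −0.93 (−1.23 to −0.65) was called lower, and the TE change was −1.02 (−1.35 to −0.69). In the ranking of all genes from lowest to highest change, IGF2BP1 stood at percentile 56.5 in RNA, 11.2 in RPF and 6.05 in TE. Its RNA change was thus near the middle of all genes, and its TE change in the lower tail but not at its end.

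IGF2BP2, the paralog that adult tissues keep, had 945 wild-type against 799 knockout-labelled RNA reads, and 482 and 486 footprint reads. Its changes of −0.09 (−0.23 to 0.05) in RNA, 0.01 (−0.17 to 0.20) in RPF and 0.10 (−0.12 to 0.33) in TE had intervals that included no change. These intervals leave out a change of 1.5-fold in either direction.

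IGF2BP3, the paralog most tightly limited to embryo and tumour, had 300 wild-type against 203 knockout-labelled RNA reads, and 256 and 274 footprint reads. The RNA count was the lower one in the knockout-labelled library while the footprint counts were near each other. Its changes were −0.41 (−0.68 to −0.15) in RNA, 0.10 (−0.15 to 0.35) in RPF and 0.51 (0.15 to 0.86) in TE. The RNA and TE intervals excluded no change, but neither value reached 1.5-fold, so IGF2BP3 was not called.

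For HMGA2 there were 299 wild-type against 53 knockout-labelled RNA reads, and 60 and 21 footprint reads. Both kinds of library held far fewer HMGA2 reads in the knockout-labelled cells. Strand use in the counting is not given, so reads of the antisense genes HMGA2-AS1 and LIN28B-AS1 cannot be told apart from those of their partners. The RNA was 5.04-fold lower (log2 −2.33, −2.79 to −1.92), which placed it at percentile 0.892 of all genes in RNA, and the footprints were 2.82-fold lower (log2 −1.49, −2.31 to −0.78), at percentile 4.02. The TE change of 0.84 (0.02 to 1.67) rested on 21 footprints and was called higher by a narrow margin. With library totals in place of the trimmed mean it was 0.82 with an interval from −0.001 to 1.65, and the call was lost.

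LIN28B was close to the limit of detection, with 16 wild-type against 5 knockout-labelled RNA reads, and 1 and 6 footprint reads. It did not reach the minimum of 50 reads in either kind, and the direction of the counts differed between RNA and RPF. The knockout-labelled to wild-type ratio was 0.347 in RNA (counting interval 0.0994 to 0.991) and 6.00 in RPF (0.728 to 276). The RPF interval spans no change, so a difference in footprints was not detectable at this depth. The RNA interval narrowly excludes no change, but its reads were under the minimum and no call was made. The other LIN28 paralog, LIN28A, had 0 reads in each of the 4 libraries.

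**Figure D2:**
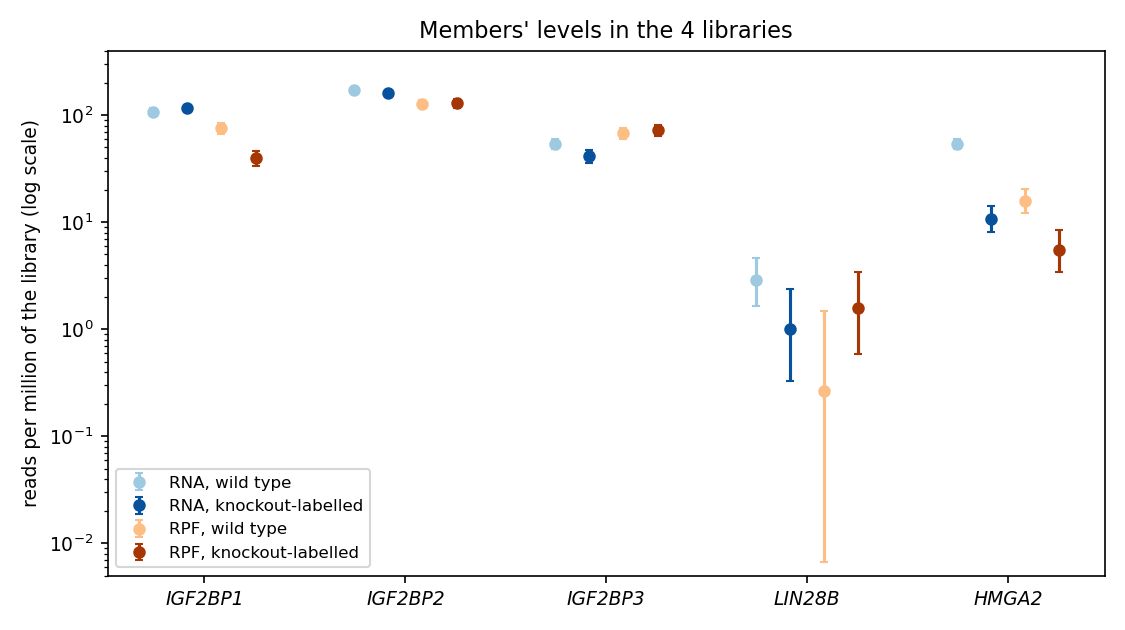
Level in CPM (log axis) for each member in the 4 libraries, 1 point per library. Bars are exact 95% Poisson intervals, which cover counting error only. The IGF2BP paralogs lie between 39.4 and 170.2 CPM, HMGA2 between 5.56 and 53.9, and LIN28B between 0.264 and 2.88.

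**Figure D3:**
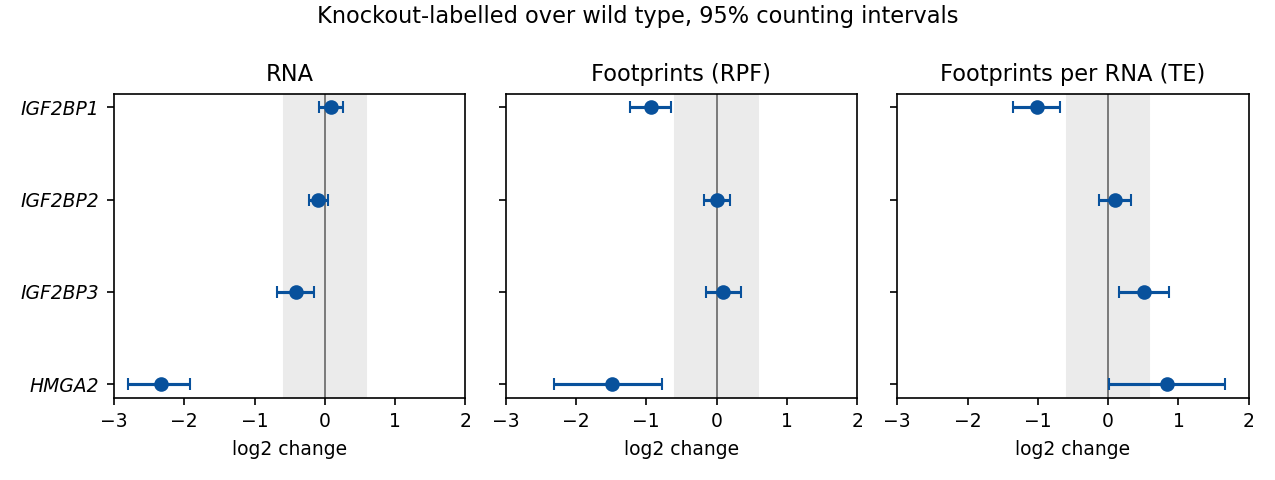
Log2 change of knockout-labelled over wild type in RNA, RPF and TE for the 4 members with at least 50 reads, with 95% counting intervals. The grey band marks less than 1.5-fold. IGF2BP1 lies below the band in RPF and TE but within it in RNA, HMGA2 lies below it in RNA and RPF and above it in TE, and the points of the other two paralogs lie within it throughout.

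The members' changes were set against each other in 6 pairs for each of the 3 quantities, with 95% intervals not adjusted for the number of pairs. The RPF change of IGF2BP1 was lower than that of IGF2BP2 by a log2 difference of −0.95 (−1.28 to −0.61) and lower than that of IGF2BP3 by −1.03 (−1.41 to −0.65). The 2 other paralogs did not differ detectably from each other in RPF, with IGF2BP2 minus IGF2BP3 at −0.09 (−0.39 to 0.22). In RNA the order from lowest to highest change was HMGA2, IGF2BP3, IGF2BP2 and IGF2BP1, and only the last 2 neighbours had a difference whose interval included 0 (0.18, −0.04 to 0.39). In RPF the difference between IGF2BP1 and HMGA2 was 0.56 (−0.21 to 1.32), so the 2 members called lower were not told apart. In TE the changes of IGF2BP2, IGF2BP3 and HMGA2 were not told apart from each other in any pair, and IGF2BP1 was below each of them, by −1.86 (−2.75 to −0.97) against HMGA2.

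The 3 IGF2BP paralogs together had 1843 and 1573 RNA reads, wild type first, and 1023 and 909 footprint reads. For the family sum the log2 change was −0.08 (−0.18 to 0.02) in RNA and −0.17 (−0.30 to −0.04) in RPF, neither of which reached 1.5-fold. Within the family, IGF2BP1 took 32.4% of the RNA reads in wild type (95% Clopper-Pearson interval 30.3 to 34.6) and 36.3% in the knockout-labelled library (33.9 to 38.7). Of the family's footprints IGF2BP1 took 27.9% (25.1 to 30.7) in wild type and 16.4% (14.0 to 18.96) in the knockout-labelled library. IGF2BP2 took the largest part of the family in each of the 4 libraries, from 47.1% of wild-type footprints to 53.5% of knockout-labelled footprints. IGF2BP3 took 25.0% and 30.1% of footprints but 16.3% and 12.9% of RNA reads, wild type first.

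The coding sequences of the paralogs are of like length (1731, 1797 and 1737 bases for IGF2BP1, IGF2BP2 and IGF2BP3), so shares per kb of coding sequence were near these raw shares. Per kb of the whole transcript, IGF2BP1 with its long 3′ UTR took 18.1% and 20.7% of the family in RNA and 15.3% and 8.40% in RPF. Which region was counted is not given in the sources used here. On every one of these bases the IGF2BP1 share of footprints was smaller in the knockout-labelled library.

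**Figure D4:**
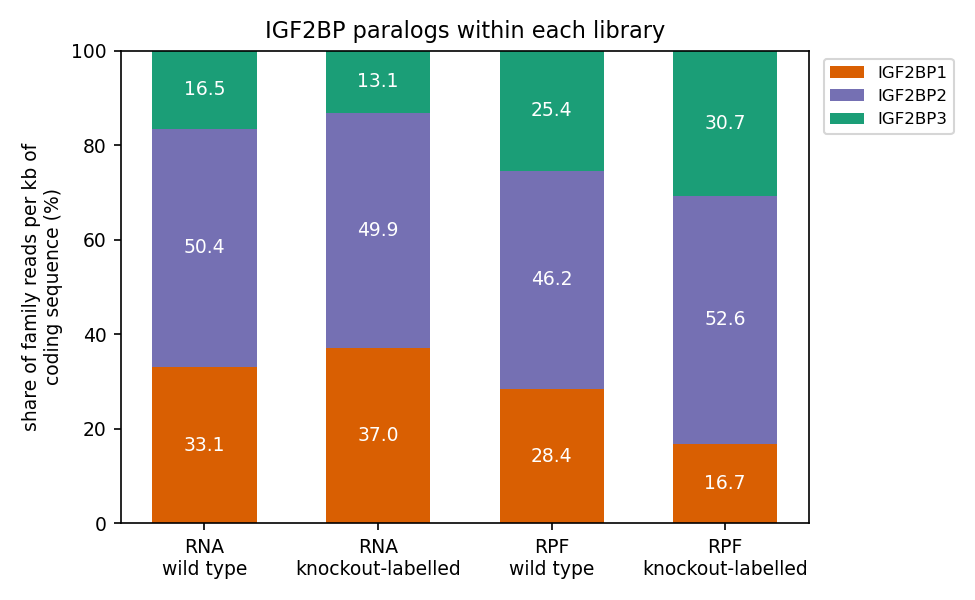
Share of each IGF2BP paralog in the family's reads per kb of coding sequence, for the 4 libraries. IGF2BP1 takes 33.1% and 37.0% in RNA, and 28.4% and 16.7% in RPF, wild type before knockout-labelled.

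Levels were compared between genes per kb. In wild-type RNA, on CPM per kb of transcript, IGF2BP2 was highest at 46.2 (43.3 to 49.2). IGF2BP1 at 13.0 (12.0 to 14.1), IGF2BP3 at 12.7 (11.3 to 14.2) and HMGA2 at 12.0 (10.7 to 13.5) had overlapping intervals, and LIN28B was lowest at 0.524 (0.299 to 0.850). In knockout-labelled RNA the order on the same scale was IGF2BP2 at 43.9, IGF2BP1 at 14.0, IGF2BP3 at 9.68, HMGA2 at 2.40 and LIN28B at 0.184, with no overlap between neighbouring intervals. The order depends on the length used, and the counted region is not given. Per kb of coding sequence, HMGA2 was highest in wild-type RNA at 165 (147 to 184). IGF2BP2 followed at 94.7, IGF2BP1 at 62.2 (57.3 to 67.4) and IGF2BP3 at 31.1 (27.7 to 34.8), without overlap. In knockout-labelled RNA these values were 32.9 for HMGA2, 90.1 for IGF2BP2, 66.9 for IGF2BP1 and 23.7 for IGF2BP3.

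In wild-type RPF, on CPM per kb of coding sequence, IGF2BP2 was at 70.9 (64.7 to 77.5). HMGA2 at 48.5 (37.0 to 62.4), IGF2BP1 at 43.5 (38.6 to 48.9) and IGF2BP3 at 39.0 (34.3 to 44.0) had overlapping intervals, and LIN28B was at 0.352. In knockout-labelled RPF the level of IGF2BP2 was 71.6 and that of IGF2BP3 41.7 (37.0 to 47.0). IGF2BP1 at 22.8 (19.3 to 26.7) overlapped with HMGA2 at 17.0 (10.5 to 26.0), and LIN28B was at 2.12. IGF2BP1 and IGF2BP3, whose intervals overlapped in wild-type footprints on this scale, were thus apart in knockout-labelled footprints. Per kb of transcript they were already apart in wild-type footprints, at 9.11 (8.08 to 10.2) and 15.9 (14.0 to 18.0). HMGA2 was below both on that scale, at 3.55 (2.71 to 4.56).

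TE as a level is the ratio of RPF to RNA CPM within 1 genotype. For IGF2BP1 it was 0.700 (0.608 to 0.806) in wild type and 0.341 (0.285 to 0.409) in the knockout-labelled cells. For IGF2BP2 the 2 ratios were 0.749 (0.671 to 0.836) and 0.794 (0.710 to 0.889), with overlapping intervals. For IGF2BP3 they were 1.25 (1.06 to 1.48) and 1.76 (1.47 to 2.11), and for HMGA2 0.296 (0.225 to 0.391) and 0.525 (0.318 to 0.865). The intervals of HMGA2 and, by a small margin, those of IGF2BP3 also overlapped between the genotypes.

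Among 7884 genes with at least 50 reads in each wild-type library, IGF2BP3 stood at percentile 55.7 of TE, IGF2BP2 at 26.7, IGF2BP1 at 23.8 and HMGA2 at 3.70. Footprint to RNA ratios were lower for transcripts of which little is coding, with a median log2 TE of −0.48 in the tenth of genes with the smallest coding share and 0.46 in the tenth with the largest. The coding share was 7.31% in HMGA2 and 20.9% in IGF2BP1, against 48.7% in IGF2BP2 and 40.9% in IGF2BP3. Within the tenth of genes of like coding share, a comparison added after seeing the data, the wild-type percentile of IGF2BP1 was 48.9 and that of HMGA2 was 11.4. In the knockout-labelled cells IGF2BP1 stood at percentile 5.85 of 7687 genes and at 8.59 within genes of like coding share. The 2 percentiles within like coding share have different reference groups, since IGF2BP1 lies at the edge between them: the tenth with the smallest coding share in wild type (median log2 TE −0.48) and the group just above it in the knockout-labelled cells (median −0.17).

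Genes whose values were nearest to each member's were found over 3 quantities from the 4 libraries, namely RNA change, RPF change and wild-type log2 TE. Nearest to IGF2BP1 were ZBTB39, LARP4B and ZNF770, at distances of 0.052, 0.090 and 0.106. The nearest genes to IGF2BP2 were HPS5, NPEPL1 and NFRKB (0.071 to 0.094), and those to IGF2BP3 were DHX30, ATPAF2 and EIF3A (0.066 to 0.072). HMGA2 had no neighbour as near, with CCDC3, PTCH1 and RGCC at 0.506, 0.566 and 0.578. The RNA changes of these 3 were −2.06, −2.01 and −2.53, and RNA change was among the quantities used to find them. HMGA2 itself lay at percentile 0.892 of all genes in RNA change.

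The list of genes that make, block or degrade let-7 had 16 members, of which 13 were measured in RNA, 3 called higher and 2 lower, with a median change of 0.14. In RPF 1 of 13 was called higher and 2 lower (median −0.13), and in TE 2 higher and 3 lower (median −0.08). Called in either direction were thus 5 of 13 in RNA, 3 of 13 in RPF and 5 of 13 in TE, beside 34.0%, 39.1% and 29.6% of all genes, and the list did not move one way. In RNA the members called higher were DGCR8, the partner of Drosha in the nucleus (108 and 158 reads, wild type first), the exonuclease gene DIS3L2 (60 and 94), which degrades uridylated let-7 precursors, and the helicase gene DDX17 (661 and 944). DGCR8 and DIS3L2 were called lower in TE, at −1.01 (−1.63 to −0.38) and −1.11 (−1.70 to −0.52), and HNRNPA1 was called higher in TE, at 0.67 (0.56 to 0.79). Those called lower in RNA were HNRNPA1 (4556 and 2169) and KHSRP (1034 and 516), RNA-binding proteins known to act on let-7 precursors.

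DICER1, which cuts the precursor hairpin, had 735 and 973 RNA reads and 153 and 327 footprint reads, wild type first. Its footprints were called higher (2.13-fold, log2 1.09, 0.81 to 1.38), while its RNA change of 0.56 (0.42 to 0.70) and its TE change of 0.54 (0.23 to 0.85) fell short of 1.5-fold. PRKRA, the Dicer partner PACT, had 239 and 111 footprint reads with 276 and 300 RNA reads, a TE change of −1.37 (−1.78 to −0.97). DROSHA had changes of −0.16 in RNA, −0.47 in RPF and −0.31 in TE. The terminal uridylyltransferases that LIN28 recruits, ZCCHC11 and ZCCHC6, had RNA changes of −0.05 and −0.34, and ZCCHC6 was called higher in TE (0.60, 0.21 to 0.98). TRIM71, a let-7 target with 6 seed matches, had 9 and 6 RNA reads and 1 and 5 footprint reads.

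Of the genes that carry out microRNA silencing, AGO3, AGO4, TNRC6A, TNRC6B and TNRC6C were counted, and AGO1 and AGO2 were not analysed here. In RNA 0 of 5 were called (median −0.17), beside 34.0% of all genes. In RPF 1 of 4 was called higher, TNRC6A (53 and 113 reads), and 1 lower, AGO3 (97 and 62), with a median of −0.09. Of all genes 39.1% were called in RPF in either direction, and 20.1% of all genes were called lower. In TE 2 of 4 were higher, TNRC6A at 0.85 and TNRC6B at 0.96, and 0 lower (median 0.30), beside 15.7% and 13.9% of all genes. Of the let-7 host genes, HUWE1 and WDR82 were counted, with RNA changes of −0.36 and −0.35, RPF changes of −0.34 and −0.21 and TE changes of 0.02 and 0.14, none of them called. A host mRNA is not a measure of the mature microRNA.

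A list of 29 let-7 targets known from the literature, the members among them, had 28 genes in the files, of which 19 held a seed match and 8 held 2 or more. In RNA 3 of the 25 measured genes were called higher and 4 lower, with a median change of −0.11. In RPF 3 of 24 were higher and 5 lower (median −0.21), and in TE 4 were higher and 5 lower (median 0.01). Called in either direction were 7 of 25 in RNA, 8 of 24 in RPF and 9 of 24 in TE. Of all genes 34.0%, 39.1% and 29.6% were called, and the list counts are too small to set apart from these shares.

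Beside HMGA2, the targets called lower in RNA were the cyclin gene CCND1 (8061 and 2302 reads, 3.15-fold), the phosphatase gene CDC25A (242 and 131) and the zinc finger gene PLAGL2 (448 and 252). Those called higher in RNA were HMGA1, the thrombospondin gene THBS1 (60 and 97) and ARID3B (102 and 140). THBS1 and ARID3B were called lower in TE, at −0.68 and −0.88. The RAS genes NRAS and HRAS, long known as let-7 targets, differed in footprints. NRAS had 74 and 256 footprint reads and was 3.44-fold higher, and HRAS had 104 and 36 and was 2.86-fold lower. The TE changes were 1.40 (0.99 to 1.81) for NRAS and −1.03 (−1.65 to −0.40) for HRAS. These TE changes differed by 2.43 (1.68 to 3.18), and the RPF changes of both genes by 3.30 (2.64 to 3.96). In the transcripts used here NRAS held 1 seed match and HRAS held none. The growth factor receptor gene IGF1R, with 2 matches, had changes of −0.09 in RNA and −0.49 in RPF, and CDK6 and CCND2 had RNA changes of 0.49 and −0.34, none of them called.

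**Figure D5:**
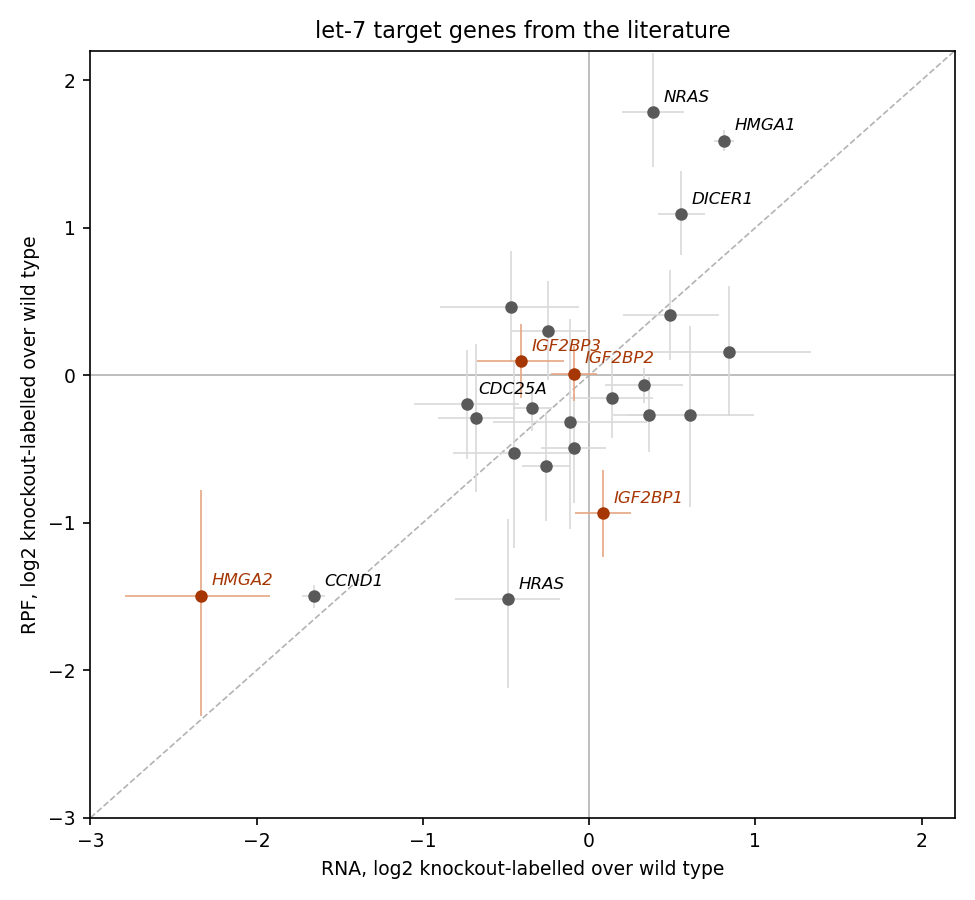
RNA change (x axis) against RPF change (y axis), both log2 of knockout-labelled over wild type, for the 24 let-7 target genes measured in both, with 95% counting intervals. Members are brown and the dashed line marks equal changes. HMGA2 lies at −2.33 and −1.49, IGF2BP1 lies below the line at 0.08 and −0.93, and NRAS lies above it at 0.38 and 1.78.

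Of the 8 genes with 4 or more seed matches, 3 are members. NR6A1, an orphan nuclear receptor gene with 5 matches, had 82 and 59 RNA reads and 29 and 0 footprint reads, under the minimum in RPF. The cohesin gene SMC1A had 1150 and 673 RNA reads (change −0.62, −0.76 to −0.48, called lower) and 920 and 689 footprint reads (change −0.42). IGDCC3 had at most 2 reads in any library, and TRIM71 at most 9. Of the 8, HMGA2 had the lowest RNA change among the 5 that reached the minimum in RNA. SMC1A and IGDCC3 are in none of the lists and are named for their number of matches.

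Across all genes, the 1009 genes measured in RNA with at least 1 match had a median RNA change of 0.05, beside −0.01 for all 10694 genes with a 3′ UTR, and 13.3% of them were called lower, beside 17.6%. In RPF the median was −0.02 for 838 genes with a match, and −0.0007 for all 9624, with 20.3% and 19.9% called lower. In TE it was −0.05 for 832 genes with a match and 0.03 for all 9437, with 17.1% and 13.9% called lower. Genes with 2 or more matches, as in 3 of the members, were called lower in 13.3% of 105 cases in RNA, 27.1% of 85 in RPF and 23.8% of 84 in TE. They were called higher in 13.3%, 16.5% and 9.52%, and their median changes were 0.06, −0.08 and 0.002 in the same order. IGF2BP1 and HMGA2 are themselves counted in this group, and an effect of the number of matches was not tested. Among genes whose 3′ UTR had at least 2000 bases, a comparison added after seeing the data, the TE medians were −0.07 for 507 genes with a match and −0.06 for all 2605. Of all genes of that length, 14.6% were called lower in RNA, 19.7% in RPF and 16.5% in TE. With 2 or more matches these shares were 12.6% of 87, 27.8% of 72 and 23.9% of 71. Called higher were 16.4%, 18.3% and 12.8% of all, and 13.8%, 18.1% and 11.3% of those with 2 or more matches. The RNA change of HMGA2, −2.33, lay below the interquartile range of the genes that hold a seed match, which ran from −0.32 to 0.44.

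HMGA2 was set beside the other high mobility group genes, which encode small proteins that bend or loosen chromatin. With HMGA2 itself counted, 6 of the 9 measured were called lower in RNA (17.8% of all genes) and 1 higher, with a median of −0.98. In RPF 4 were lower (20.1% of all genes) and 2 higher (median −0.52), and in TE 4 were higher (15.7% of all genes) and 0 lower (median 0.43). HMGA2 is one of those counted as lower in RNA and RPF and as higher in TE. HMGA1, the paralog of HMGA2, had 3528 and 5576 RNA reads and 2273 and 6849 footprint reads, wild type first. It was called higher in RNA (log2 0.81, 0.75 to 0.87), in RPF (1.59, 1.52 to 1.66) and in TE (0.78, 0.69 to 0.87). The RNA changes of HMGA1 and HMGA2 differed by 3.15 (2.72 to 3.57) and their RPF changes by 3.08 (2.37 to 3.80), whereas their TE changes differed by −0.06 (−0.89 to 0.77).

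The others called lower in RNA included HMGB1 (2506 and 808 reads), HMGB2 (603 and 228) and HMGN2 (1847 and 763). HMGN2 had 387 and 508 footprint reads, so its TE change of 1.52 (1.29 to 1.74) was higher, and HMGN4 had a TE change of 0.79. Several of these genes, and HNRNPA1 and YBX1 of other lists, have near-identical processed pseudogenes, and how reads with several matches were counted is not given in the sources used here, so their counts are uncertain.

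The oncofetal list had 17 genes, of which 15 were in the files and 8 reached the minimum in RNA. In RNA 2 were called higher and 2 lower (median −0.25), in RPF 3 of 7 higher and 2 lower (median 0.10), and in TE 3 of 7 higher and 1 lower (median 0.51), members included. Called in either direction were 4 of 8, 5 of 7 and 4 of 7, beside 34.0%, 39.1% and 29.6% of all genes. AFP and GPC3, classical markers of fetal liver and liver tumours, had 0 reads in each of the 4 libraries, and CEACAM5 had at most 6. TDGF1, encoding the embryonic co-receptor Cripto, had 109 and 39 RNA reads (log2 −1.32, −1.90 to −0.79). The trophoblast glycoprotein gene TPBG was higher in RNA (85 and 149 reads) and in RPF (81 and 151). IGF2, the growth factor gene after which the IGF2BP family is named, had 637 and 411 RNA reads but 37 and 60 footprint reads. Its changes were −0.48 (−0.66 to −0.30) in RNA, not called, 0.69 (0.08 to 1.33) in RPF and 1.17 (0.56 to 1.78) in TE, both called higher. H19 and SALL4 were not analysed here.

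Proteins that share ribonucleoprotein particles with IGF2BP1 were listed as 9 genes, of which 6 were measured. In RNA 2 were called lower and 0 higher (median −0.39), in RPF 3 lower and 0 higher (median −0.30), and in TE 1 higher and 0 lower (median 0.17). Of all genes 17.8% were lower in RNA, 20.1% lower in RPF and 15.7% higher in TE. SYNCRIP and the helicase gene DHX9, known with IGF2BP1 as parts of a complex that protects mRNA, were lower in RNA by 2.48-fold (1068 and 387 reads) and 2.31-fold (1075 and 418). In footprints they were lower by 2.22-fold (1605 and 722) and 2.04-fold (1488 and 730), so their TE changes of 0.16 and 0.18 were not called. YBX1, a further part of that complex, had 4477 and 2775 RNA reads, 1359 and 1549 footprint reads and a TE change of 0.73 (0.60 to 0.85). MATR3 and the poly(A)-binding protein gene PABPC1 were not called in any quantity, and FUBP3 was lower in RPF (606 and 402, log2 −0.59), a call that was lost with upper-quartile scaling (−0.57). HNRNPU and ELAVL1 were not analysed here.

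Transcripts known as IMP1 targets were listed as 16 genes, HMGA2 among them, with 13 measured. In RNA 6 were called lower and 1 higher (median −0.48), in RPF 4 lower and 2 higher (median −0.002), and in TE 3 higher and 1 lower (median 0.32). Of all genes 17.8% were lower in RNA, 20.1% lower in RPF and 15.7% higher in TE. Beside HMGA2, those lower in RNA were MKI67, the forkhead gene FOXM1, LEF1, CTNNB1 and ACTB, and the ubiquitin ligase subunit gene BTRC was higher (115 and 228 reads). MKI67 and FOXM1, both markers of dividing cells, were also lower in RPF, by 2.94-fold and 3.09-fold. LEF1 had 382 and 154 RNA reads but 122 and 130 footprint reads, a TE change of 1.25 (0.80 to 1.69). CTNNB1 was lower by 2.07-fold in RNA and 2.65-fold in RPF, and CD44 had changes of −0.32 and −0.002. Against the 5.04-fold of HMGA2, the next largest fall in RNA in this list was the 4.23-fold of MKI67.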

How the data were processed

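Total RNA and ribosome footprints were measured in 4 libraries. The deposited values are raw counts, whole numbers of reads for each gene symbol, which the authors tie to a single Ensembl transcript. Per the labels' protocols, size selection kept footprints from 18 to 34 nt and RNA from 18 to 50 nt, linkers carried random identifiers of 4 and 5 nt, RiboZero removed ribosomal RNA, and PCR ran for 15 cycles. The tools named in the submitters' processing notes are HISAT2 2.1.0, Bowtie 1.1.2 and cutadapt 1.10, with build GRCh38. Their roles, the counted region, strand use, reads with several matches and any collapsing by identifier were not given in the sources used here. PCR reads are not independent molecules, so intervals and floors cover counting error only.

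Each pair of libraries of 1 kind was scaled by the trimmed mean of M values (edgeR 4.0.16 in R 4.3.3). Further steps ran in Python 3.11.15 with pandas 2.3.3, SciPy 1.17.1, NumPy 2.4.6 and matplotlib 3.10.9. Log2 ratios carry a prior count of 0.5. Intervals of RNA and RPF changes are exact and conditional on the summed reads (Clopper-Pearson), and those of TE and of differences between genes use summed reciprocal counts. The scripts were tested on simulated data. With 0 residual degrees of freedom no count model was fitted. GENCODE release 29 held 19176 of the 19192 transcripts.

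The members and the 9 lists were chosen with earlier results of these data known. Named genes are the 5 members, up to 4 called genes per list and comparison, ranked by the interval bound nearest to no change, a fixed set of genes of the circuit, and the 3 genes nearest to each member. Not every gene the rule names is printed, and other list members are named with their values after these were seen. Some results are not reported here.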

Additional observations from a re-analysis of the deposited data

How the results depend on the processing

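No paired analysis was possible because each group has 1 library, so no replicate could be left out either. Library totals, median-of-ratios factors, upper-quartile scaling, totals without mitochondrial, MTRNR2L and PLCG2 genes, minimums of 200 reads and none, a prior count of 2 and a 2-fold call were tried in turn. For the members, 92 of 97 changes under these settings kept their direction and their side of the call, and none turned. The minimums and the 2-fold call leave every value and interval as it was, so no direction could turn under them. For genes above the minimums, the call could not differ under them either. Changes that fell under 200 reads, such as those of HMGA2 in RPF and TE, were not counted at that setting. At a 2-fold call the RPF change of IGF2BP1 (−0.93) and the TE change of HMGA2 (0.84) were no longer called, and with library totals the TE change of HMGA2 was 0.82 and not called. With no minimum LIN28B was called lower in RNA (−1.43, on 16 and 5 reads) and higher in TE (3.55, on 1 and 6 footprints). For the other named genes, 831 of 832 changes under settings other than the 2-fold call were on the same side (the exception was FUBP3 in RPF, −0.57 with upper-quartile scaling), and 20 of 214 list counts moved by over 1.5 times.

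Over all genes, a minimum of 200 reads gave 1035 higher and 1227 lower in RNA, 993 and 1080 in RPF and 753 and 558 in TE. The 2-fold call gave 695 and 908, 881 and 967, and 620 and 603. Without mitochondrial, MTRNR2L and PLCG2 genes the wild-type log2 TE of IGF2BP1, IGF2BP2 and IGF2BP3 was −0.76, −0.66 and 0.080 and the knockout-labelled value of IGF2BP2 −0.56. Relative to the median gene it was −0.72 for IGF2BP1 and −0.62 for IGF2BP2 in wild type, and −0.55 for IGF2BP2 in the knockout-labelled cells. The IGF2BP1 share of family reads without length correction was 32.4% and 36.3% in RNA and 27.9% and 16.4% in RPF, and per kb of coding sequence 33.1% and 37.0%, and 28.4% and 16.7%. Depth limits LIN28B, and the 21 knockout-labelled footprints of HMGA2 limit its TE.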
